A study of Rattus norvegicus with 2 samples.

Results

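Amino acid catabolism enzymes are described here as a list of 41 rat genes, chosen by name because they break down amino acids in the liver, and found on the array by probes whose gene name equals the listed symbol. Of these, 39 were named on the array by 51 probes, and Gstz1 and Afmid were not. After probes near background were left out, 37 members were tested among 18195 genes. Gpt was well above background on 1 array in each diet and Tdh on none, so neither was tested, and their log2 ratios of choline-deficient over control liver were -0.019 and -0.14 for Gpt and 0.12 and -0.12 for Tdh on arrays 1 and 2. All 37 tested members were well above background for both diets on both arrays, and for 32 of them the array signal was above the median over all genes, which does not rank their RNA amounts.

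The study compared liver total RNA of Wistar rats (spelled Wister in the labels) aged 7 weeks that ate a choline-deficient diet for 10 days with that of rats of the same strain and age on a control diet. RNA of both diets was hybridised together on each of 2 two-colour Agilent arrays, and the dyes were swapped: Cy5 marked the choline-deficient RNA on array 1, and Cy3 marked it on array 2. The title speaks of 4 choline-deficient rats, and the labels do not say whether the arrays held different rats, pools or the same extracts. The limma p-values thus reflect the spread between these 2 arrays, mostly as pooled over all genes, and this spread may be technical. No genetic change or drug is named for either group. No spot was saturated, and across all genes tested the median log2 ratio was 0.013 on array 1 and -0.0041 on array 2.

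The liver is the main site where most amino acids in excess of need are degraded. Their nitrogen is moved by aminotransferases to glutamate and aspartate and ends in urea, while the carbon skeletons pass through mitochondrial dehydrogenases and hydratases to pyruvate, acetyl-CoA or intermediates of the citric acid cycle. Tryptophan, tyrosine, lysine, proline and the branched-chain amino acids each have a route of their own, with enzymes that are largely specific to it. Several of these enzymes are classic targets of glucocorticoids, glucagon and dietary protein.

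Most members had ratios slightly below 0, and 12 passed the test, nearly all of them lower in choline-deficient liver. In limma's test with Benjamini-Hochberg adjustment over all genes, 11 of 37 members fell (Aspg, Prodh2, Prodh, Aldh6a1, Mccc2, Kynu, Agxt, Kmo, Haao, Dbt and Aass), 1 rose (Tat) and 25 did not pass an adjusted p of 0.05. Over all genes tested, 4.25% fell and 4.37% rose. The log2 ratio was below 0 on both arrays for 28 members, or 75.7%, against 27.0% of all genes. It was above 0 on both arrays for 3 of 37 members, Tat, Acmsd and Bckdk, against 5342 of all 18195 genes. The shares over all genes were not matched for brightness, and 32 of 37 members were brighter than the median gene. The median log2 ratio of the members was -0.18, with -0.24 on array 1 and -0.17 on array 2. The counts depend on how the ratios were made, because limma called 0 genes with the authors' deposited log ratio (2122 genes at an unadjusted p under 0.05, with 11 members lower and 2 higher) and 0 with median centring in place of loess (19 genes and 0 members). In liver as a whole, fewer cells that express a gene and less of its RNA in each cell cannot be told apart.

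**Figure D1:**
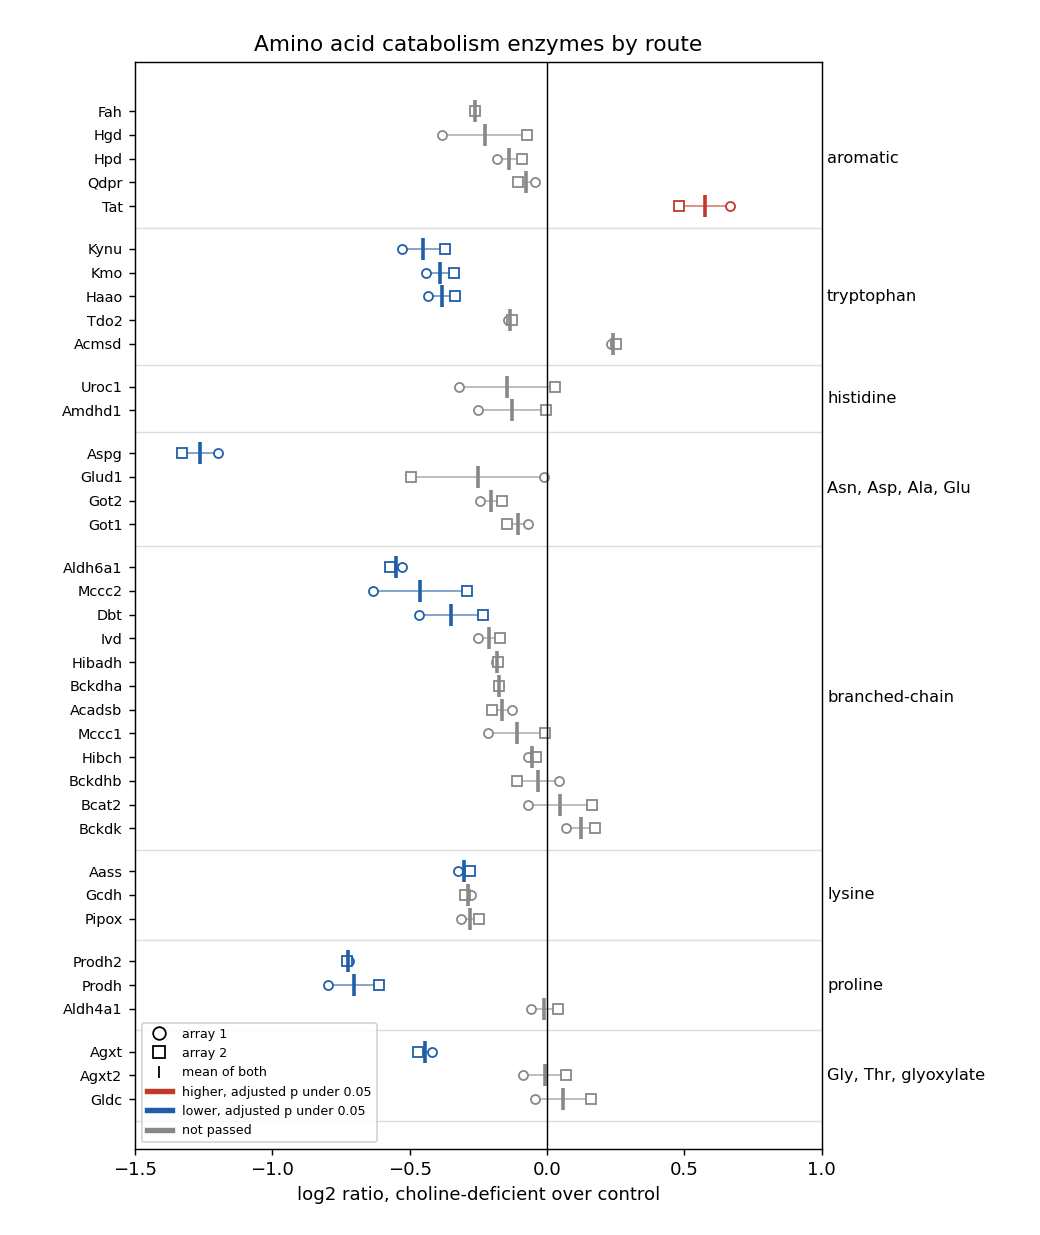
The log2 ratio of choline-deficient over control liver (horizontal axis) is plotted for each of the 37 tested members, grouped by the amino acid whose breakdown it serves. Circles are array 1, squares are array 2 and the upright bar is their mean. Aspg, Prodh2 and Prodh lie farthest to the left, and Tat is the only member to the right of 0 that passed the test.

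Aspg, an enzyme that releases ammonia from asparagine and whose rat protein is also known as a lysophospholipase, was the member with the lowest ratio. Its log2 level, the normalized intensity of 1 dye, was 10.90 and 10.73 in choline-deficient liver on arrays 1 and 2, and 12.10 and 12.06 in control liver. Both choline-deficient levels lay below both control levels. Here and below, such a lack of overlap is a description that adds no support, since its share over all genes was not counted. The mean log2 ratio of -1.26 ± 0.09 (SD, n = 2 arrays) put it at 2.40-fold lower (limma adjusted p = 5.80e-16) and at rank 12 from the lowest of 18195 genes. Its probe aligned to chr6:136928735-136928794 of the rat build rn4 on the plus strand. Of the members' levels, those of Aspg were the only ones that differed by at least 2-fold.

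The other enzymes of this group, which pass the nitrogen of aspartate, alanine and glutamate on, did not pass the test. Got1 and Got2, the cytosolic and mitochondrial aspartate aminotransferases, had log2 ratios of -0.11 ± 0.053 and -0.20 ± 0.056 (SD, n = 2 arrays). Glud1, glutamate dehydrogenase, which frees ammonia from glutamate, had -0.012 on array 1 and -0.49 on array 2, the widest spread of any member (SD 0.34). Its dimmer probes gave means of -0.15 and -0.22, so the sign was the same with each probe but the size was not settled (limma adjusted p = 0.152).

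The proline route held the next lowest members. Prodh, proline dehydrogenase of the inner mitochondrial membrane, starts the breakdown of proline, and Prodh2 does the same for hydroxyproline, which comes mostly from collagen. Prodh2 had log2 levels of 11.82 and 11.83 in choline-deficient liver and 12.54 and 12.55 in control liver on arrays 1 and 2. The arrays gave nearly the same value, and the diets did not overlap. Its log2 ratio was -0.72 ± 0.0031 (SD, n = 2 arrays), 1.65-fold lower (limma adjusted p = 9.72e-08). Prodh had levels of 10.66 and 10.72 in choline-deficient and 11.46 and 11.33 in control liver, without overlap. Its log2 ratio was -0.70 ± 0.13 (SD, n = 2 arrays), 1.63-fold lower (limma adjusted p = 2.31e-07). Aldh4a1, which oxidises the product of both enzymes to glutamate or its hydroxy form, had log2 ratios of -0.057 and 0.038 on the arrays, with a 95% interval of the mean from -0.21 to 0.19. The mean ratios given above for Prodh2 and Prodh lay outside the interval of Aldh4a1, though the difference between the genes was not tested. The mean of the dimmest Prodh probe, -0.19, lay inside that interval.

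The probe of Prodh2 and the dimmest probe of Prodh are shown because each spans an exon junction, as its alignment to rn4 covers more than its 60 bases, and because the Prodh probes differ in size of ratio. All letters are lower case, since no stretch is singled out.
Prodh2, chr1:85557265-85559315, plus strand: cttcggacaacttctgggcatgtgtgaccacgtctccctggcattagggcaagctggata
Prodh, dimmest probe, chr11:84913567-84914043, plus strand: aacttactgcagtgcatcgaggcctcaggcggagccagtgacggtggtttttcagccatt
The brightest Prodh probe, at chr11:84922144-84922203, gave the mean of -0.70 above. The dimmest, which was well above background on only 1 array in choline-deficient liver, gave -0.065 and -0.32 on the arrays. Both probes were below 0 on each array, but the dimmest gave smaller ratios. With the authors' deposited log ratio, to which no offset was added, the dimmest had -0.13 on array 1 and -1.13 on array 2, and the brightest -0.91 and -0.65. The arrays thus disagreed on the size of the ratio for the dimmest probe.

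In the kynurenine route of tryptophan, the enzymes of the middle of the route fell and those at its start and branch did not pass. Tdo2, the dioxygenase that opens the indole ring as the first step, had log2 ratios of -0.14 and -0.13, with a 95% interval of the mean from -0.34 to 0.067. Kmo, which hydroxylates kynurenine, had log2 levels of 9.82 and 10.06 in choline-deficient and 10.26 and 10.40 in control liver, with no overlap. Its log2 ratio was -0.39 ± 0.07 (SD, n = 2 arrays; limma adjusted p = 0.00554).

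Kynu, kynureninase, which splits off alanine, had log2 levels of 15.11 and 15.21 against 15.63 and 15.58. Its choline-deficient levels were both the lower ones, and the log2 ratio was -0.45 ± 0.11 (SD, n = 2 arrays; limma adjusted p = 0.00105). Haao, which opens the ring of hydroxyanthranilate, had levels of 11.22 and 11.38 against 11.65 and 11.72, again without overlap, and a log2 ratio of -0.38 ± 0.07 (limma adjusted p = 0.00671). Acmsd, the decarboxylase that draws the product of Haao away from the synthesis of NAD, had ratios of 0.23 and 0.25 and did not pass (limma adjusted p = 0.154). Its 95% interval ran from 0.040 to 0.44 before adjustment. The Acmsd probe was dim, at percentile 27.8 of brightness, where the offset draws ratios towards 0. With the authors' deposited log ratio, to which no offset was added, Acmsd had 0.41 and 0.48 and Haao -0.43 and -0.37. No gene passed in limma with those ratios. The median of the 5 tested tryptophan members was -0.38.

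The probes of Kmo and Haao are shown as those of consecutive oxygenases of the route that fell by similar amounts.
Kmo, chr13:91388661-91390462, plus strand, across an exon junction: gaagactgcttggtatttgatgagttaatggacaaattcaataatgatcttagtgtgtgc
Haao, chr6:7200305-7200364, minus strand: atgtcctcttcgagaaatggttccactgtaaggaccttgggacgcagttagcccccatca

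**Figure D2:**
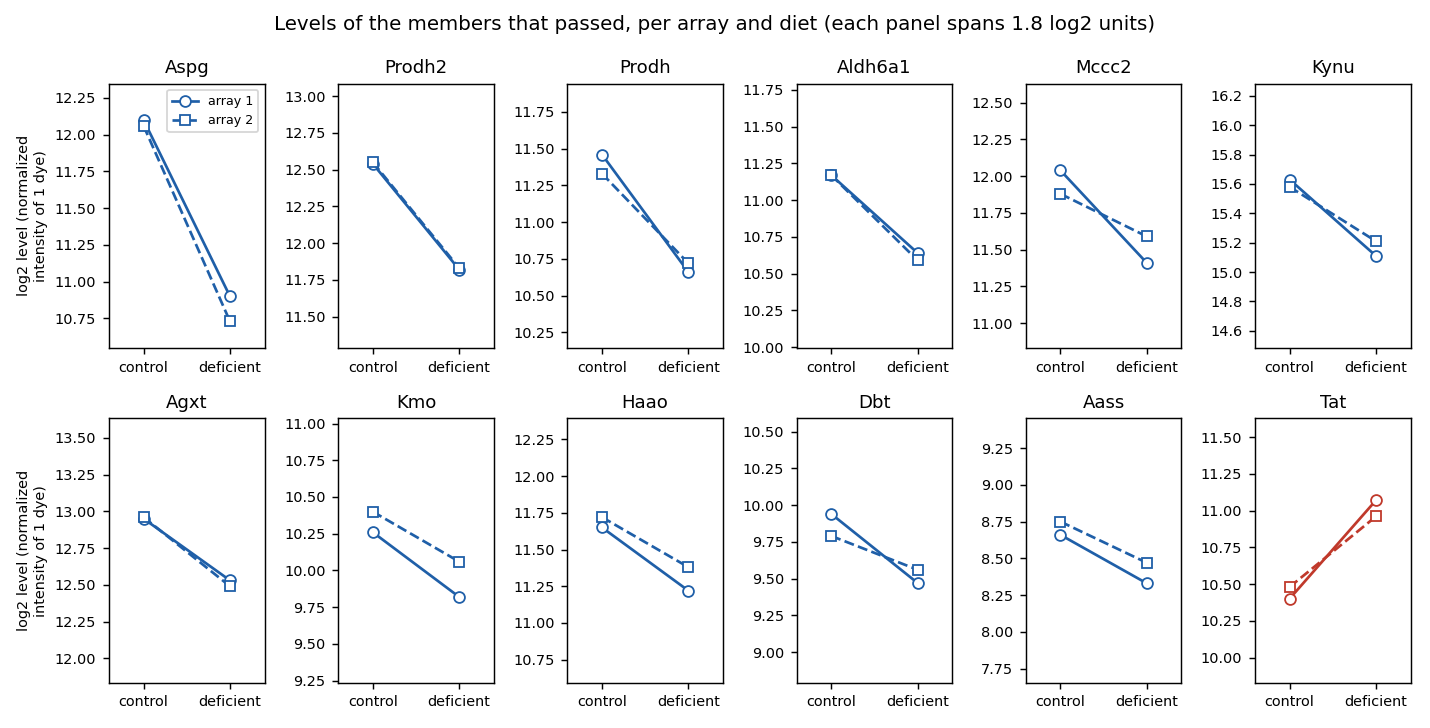
Log2 levels (normalized intensity of 1 dye, vertical axis) of the 12 members that passed the test are plotted for control and choline-deficient liver, with circles and solid lines for array 1 and squares and broken lines for array 2. Each panel covers the same span but starts at its own level, since levels of different probes are not comparable. The lines fall in 11 panels and rise for Tat, and in all 12 the levels of the diets do not overlap. These members were chosen by a test on the same arrays, so the lack of overlap is a description and adds no support. Its share over all genes was not counted.

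Tat went the other way. Tyrosine aminotransferase starts tyrosine breakdown, and its gene is a textbook example of induction by glucocorticoids and glucagon. Its log2 levels were 11.07 and 10.96 in choline-deficient and 10.40 and 10.48 in control liver on arrays 1 and 2. Both choline-deficient levels were above both control levels, and the log2 ratio was 0.57 ± 0.13 (SD, n = 2 arrays), 1.49-fold higher (limma adjusted p = 2.11e-05). Its probe is shown because this was the only member that rose.
Tat, chr19:39863848-39863907, plus strand: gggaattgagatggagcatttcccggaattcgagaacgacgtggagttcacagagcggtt

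The enzymes that follow Tat on the way to fumarate and acetoacetate had ratios below 0 on both arrays and none passed. Hpd, the dioxygenase of the second step, had log2 ratios of -0.18 and -0.093. Hgd, which opens the ring of homogentisate, had -0.38 and -0.072. Fah, the hydrolase of the last step, had -0.26 on both arrays (limma adjusted p = 0.104). Qdpr, which recycles the cofactor tetrahydrobiopterin of aromatic hydroxylases, had -0.043 and -0.11. The 95% intervals of these 4 genes reached no higher than 0.13, while that of Tat began at 0.37.

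The branched-chain amino acids leucine, isoleucine and valine share their first steps and then part. Of 12 tested members, 3 fell and none rose, with a median log2 ratio of -0.17. At the shared steps, Bcat2, the mitochondrial aminotransferase, had ratios of -0.068 and 0.17. Bckdha and Bckdhb, the decarboxylase subunits of the branched-chain ketoacid dehydrogenase, had means of -0.17 and -0.033. Dbt, the core subunit of the same complex, had levels of 9.47 and 9.56 in choline-deficient and 9.94 and 9.79 in control liver. Dbt was lower on both arrays but by unequal amounts, -0.47 and -0.23, with a mean log2 ratio of -0.35 ± 0.17 (SD, n = 2 arrays; limma adjusted p = 0.0167). The call ended with a smaller normexp offset of 16 (limma adjusted p = 0.0562), while its dimmer probes gave means of -0.32 and -0.23. With the authors' deposited log ratio these dimmer Dbt probes gave -0.47 and -0.42, and the brightest -0.45. Bckdk, the kinase that shuts the complex down, had ratios of 0.070 and 0.17 and did not pass (limma adjusted p = 0.669).

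After the shared steps, the enzymes of leucine breakdown included Mccc1 and Mccc2, the subunits of methylcrotonoyl-CoA carboxylase, and Ivd, the dehydrogenase before it. Mccc2 had levels of 11.41 and 11.59 in choline-deficient and 12.04 and 11.88 in control liver. The diets did not overlap, but the ratio on array 1 (-0.63) was larger than that on array 2 (-0.29), with a mean of -0.46 ± 0.24 (SD, n = 2 arrays; limma adjusted p = 9.01e-04). Its partner Mccc1 had -0.22 and -0.0060 and did not pass, and Ivd had -0.25 and -0.17 (limma adjusted p = 0.252). In isoleucine and valine breakdown, Acadsb, Hibch and Hibadh had means of -0.16, -0.055 and -0.18, and none passed.

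Aldh6a1, the dehydrogenase of methylmalonate semialdehyde at the end of valine breakdown, had the lowest ratio of the branched-chain members. Its levels were 10.64 and 10.59 in choline-deficient and 11.17 on both arrays in control liver. The arrays differed by little, and the log2 ratio was -0.55 ± 0.03 (SD, n = 2 arrays), 1.46-fold lower (limma adjusted p = 4.16e-05). Its probe is shown as that of the lowest branched-chain member.
Aldh6a1, chr6:108497493-108497552, minus strand: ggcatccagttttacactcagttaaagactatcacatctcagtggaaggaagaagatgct

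All 3 members of lysine breakdown had ratios near -0.3 on both arrays, and they lay on either side of the threshold. Aass, the bifunctional enzyme that takes lysine through saccharopine, had levels of 8.33 and 8.47 against 8.66 and 8.75 in control liver. It fell with a log2 ratio of -0.30 ± 0.03 (SD, n = 2 arrays; limma adjusted p = 0.0477), but the call ended with an offset of 16 (limma adjusted p = 0.0851) and without the filter on dim probes (limma adjusted p = 0.104). Gcdh, glutaryl-CoA dehydrogenase, had -0.28 and -0.30 (limma adjusted p = 0.0639). Pipox, a peroxisomal oxidase of pipecolate and sarcosine, had -0.31 and -0.25 (limma adjusted p = 0.0733). With an intensity trend in the variance, Gcdh and Pipox passed as well (limma adjusted p = 0.0185 and 0.0252).

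Among the enzymes of glycine, threonine and glyoxylate, Agxt fell. It is the liver's peroxisomal aminotransferase that turns glyoxylate into glycine and so keeps it from becoming oxalate. Its levels were 12.53 and 12.49 in choline-deficient and 12.95 and 12.96 in control liver, with no overlap and a log2 ratio of -0.45 ± 0.04 (SD, n = 2 arrays; limma adjusted p = 0.00116). A second probe gave -0.45 and the dimmest, also of the same sign, -0.25. With the authors' deposited log ratio, to which no offset was added, the dimmest Agxt probe gave -0.62 and the brightest -0.48. Agxt2, the mitochondrial aminotransferase that uses glyoxylate to remove other amino groups, had -0.086 and 0.070. Gldc, the decarboxylase of the glycine cleavage system, had -0.043 and 0.16. Both signs differed between the arrays, and neither passed.

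The histidine enzymes did not pass. Uroc1, urocanate hydratase, had -0.32 on array 1 and 0.029 on array 2, and its dimmer probes had means of 0.023 and 0.0037. Amdhd1, which acts on the product of Uroc1, had -0.25 and -0.0026. Both were low on array 1 and near 0 on array 2.

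**Figure D3:**
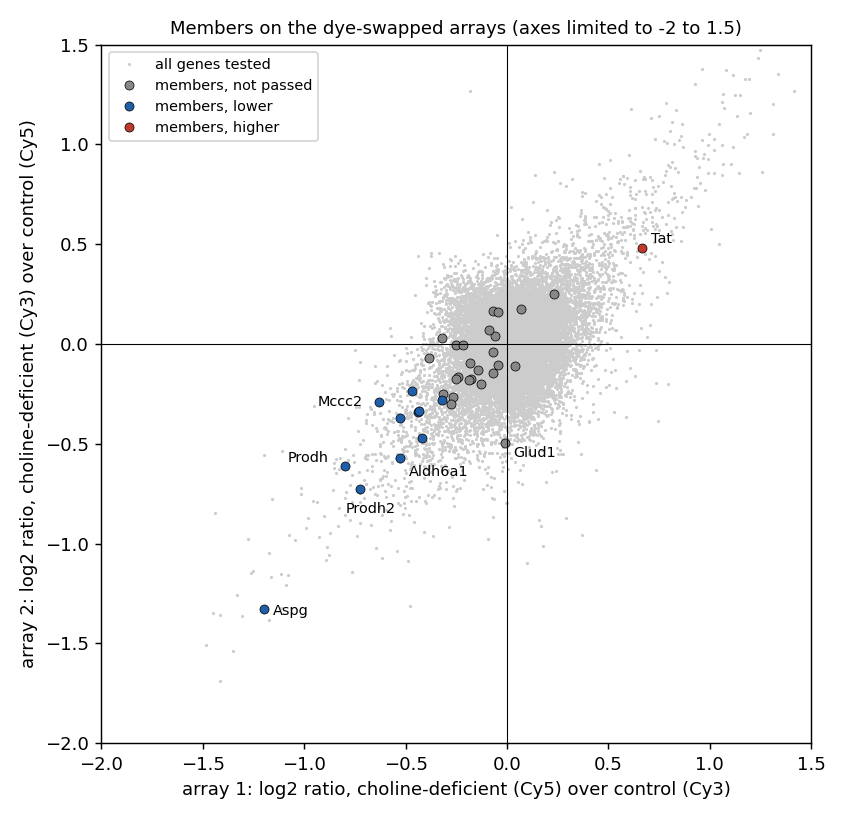
The log2 ratio of choline-deficient over control liver on array 1 (horizontal axis, choline-deficient RNA in Cy5) is plotted against that on array 2 (vertical axis, choline-deficient RNA in Cy3) for all 18195 genes in pale grey and for the 37 members. Blue members fell, the red member rose and dark grey members did not pass. Most members, 28 of 37, lie below 0 on both axes, and Glud1 lies below the others near 0 on array 1.

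Set side by side, the routes had median log2 ratios of -0.70 for proline (2 of 3 tested fell), -0.38 for tryptophan (3 of 5), -0.29 for lysine (1 of 3), -0.23 for asparagine, aspartate and glutamate (1 of 4), -0.17 for branched-chain (3 of 12), -0.14 for histidine (0 of 2), -0.14 for aromatic (0 of 5 fell, 1 rose) and -0.0084 for glycine and glyoxylate (1 of 3). With so few members a route, these medians are a description, and differences between routes were not tested. Their order was not the same on each array. The asparagine, aspartate and glutamate median was -0.16 on array 1 and -0.33 on array 2, that of histidine -0.28 and 0.013, that of aromatic members -0.18 and -0.093, and that of glycine and glyoxylate members -0.086 and 0.070. On array 1 the first of these was thus nearer 0 than those of histidine, aromatic and branched-chain members (-0.18), and on array 2 it was farther from 0 than that of lysine (-0.28). Proline and tryptophan members had the lowest medians on both arrays with these ratios. With the authors' deposited log ratio the lysine median was -0.42 and that of tryptophan -0.40, so these routes changed places, while proline stayed the lowest. The median over the proline members was -0.40 when each gene was the mean over its kept probes, because of the dimmer Prodh probes. Only the tryptophan and proline routes had more tested members that fell than did not.

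The scanner software's own error model gave a p-value for each spot within 1 array. In the authors' deposited p-values, 6 members (Aspg, Prodh2, Prodh, Aldh6a1, Agxt and Kmo) were lower at a p under 0.05 on both arrays, against 2.39% of all genes. Tat was higher on both, and the share of all genes higher on both was not counted. These p-values describe spots, not rats. Kynu, Mccc2, Haao, Dbt and Aass met that threshold on array 1 but not on array 2. The deposited log ratio was below 0 on average for 31 of 37 members and below the median of all genes for 30. Its values for the 12 members that passed kept their sign. With median centring in place of loess, the median of all genes was 0.65 on array 1 and -0.41 on array 2, and that of the members was 0.85 and -0.95. Under that setting the members lay farther from 0 than the median gene on both arrays, in opposite directions. In the mean over the swapped arrays the members' median was -0.02 and that of all genes 0.080. Of 37 members, 26 lay below the latter and 19 lay below 0.

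**Figure D4:**
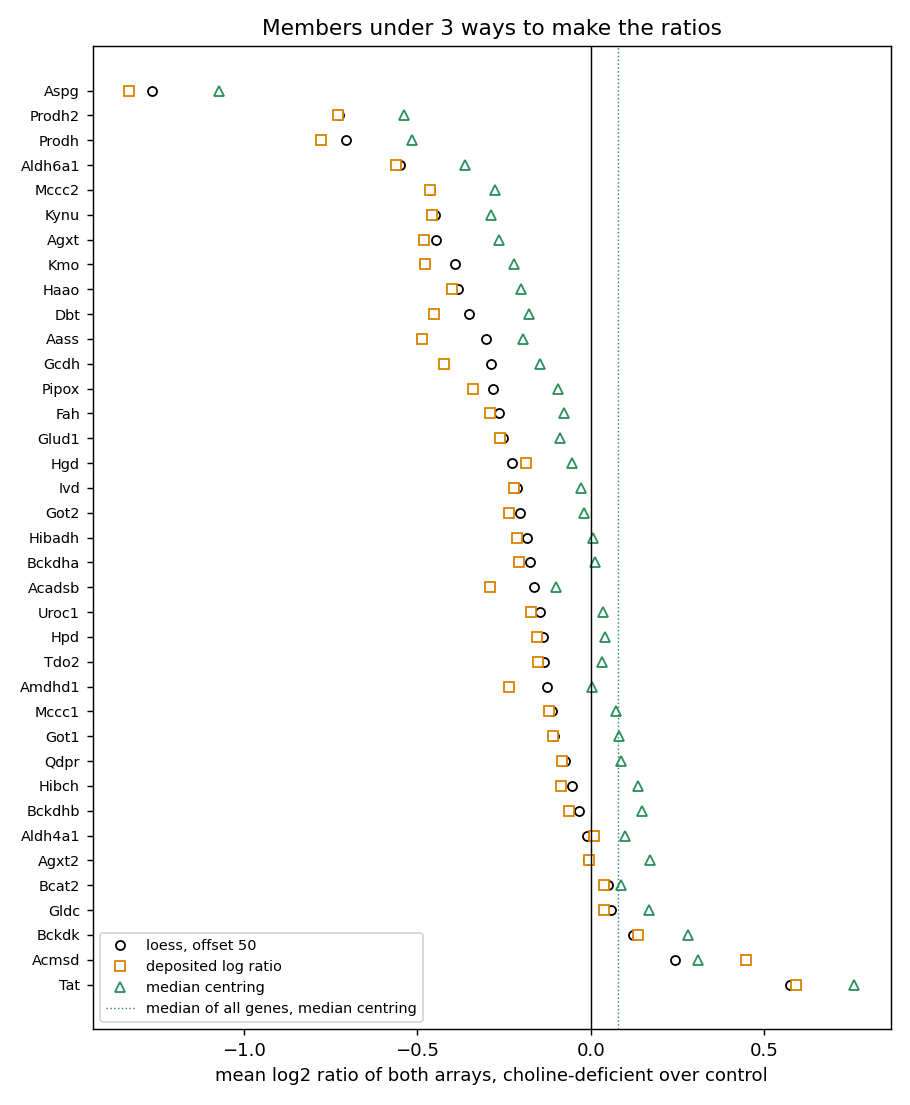
The mean log2 ratio of both arrays (horizontal axis) is plotted for each tested member with loess and an offset of 50 (circles), with the authors' deposited log ratio (squares) and with median centring (triangles). The dotted line at 0.080 is the median of all genes under median centring. Aspg, Prodh2 and Prodh are the lowest and Tat the highest member in each of the 3 series.

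Further enzymes of amino acid breakdown outside the 41 genes were read from a list of 45, of which 40 were tested. Of these, 9 fell and none rose, with a median log2 ratio of -0.18, the same as that of the members. Oat, ornithine aminotransferase, which like Prodh leads to glutamate semialdehyde, had levels of 10.95 and 11.08 against 12.07 and 12.23 in control liver. It was lower on both arrays by a like amount, with a log2 ratio of -1.13 ± 0.02 (SD, n = 2 arrays), 2.19-fold lower (limma adjusted p = 3.89e-14). Cdo1, the dioxygenase that commits cysteine to taurine and sulfate, fell by 0.71 on the log2 scale (limma adjusted p = 2.36e-07). Aadat, which transaminates aminoadipate of the lysine route and kynurenine, fell by 0.56 (limma adjusted p = 3.52e-05). Etfb, a subunit of the flavoprotein that takes electrons from Ivd, Gcdh and Acadsb, fell by 0.53 (limma adjusted p = 1.43e-04).

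Genes next to these routes were read from further lists. Of 9 genes of the urea cycle and ammonia handling, Ass1, which joins citrulline and aspartate, rose by 0.35 on the log2 scale (limma adjusted p = 0.0156). Glul, glutamine synthetase, and Slc25a13, the mitochondrial aspartate-glutamate carrier, fell by 0.46 and 0.42 (limma adjusted p = 7.28e-04 and 0.00234). Of 14 tested amino acid carriers, Slc3a2, the shared heavy chain of several exchangers, fell by 0.34 (limma adjusted p = 0.0193) and 13 did not pass. None of 5 tested genes of tetrahydrobiopterin synthesis and recycling passed, with a median of -0.067. With an offset of 16 the calls of Ass1 and Slc3a2 ended.

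Of 18 tested regulators of these enzymes, 1 rose and 3 fell. Cebpd, a C/EBP factor of the acute phase, rose by 0.78 on the log2 scale (limma adjusted p = 1.55e-08). The liver factor Foxa2, the cAMP-responsive modulator Crem and the bile acid receptor Nr1h4 fell by 0.48, 0.39 and 0.38 (limma adjusted p = 3.69e-04, 0.00610 and 0.00815). The call of Crem ended when genes were averaged over their probes. Of 14 liver genes known to answer to glucocorticoids or fasting, to which Tat is commonly reckoned, 3 rose, 1 fell and 10 did not pass. Over all genes tested, 4.37% rose and 4.25% fell. Zbtb16 and Sgk1 rose by 0.62 and 0.37 (limma adjusted p = 3.89e-06 and 0.00971), and Pdk4 rose by 0.33 (limma adjusted p = 0.0260), a call that ended with an offset of 16, with probe means and without the filter. G6pc, the last enzyme of glucose release, fell by 0.58 (limma adjusted p = 1.83e-05). Among those that did not pass, Fkbp5 and Per1 had means of 0.079 and 0.066, and Tsc22d3 and Dusp1 had -0.20 and -0.27. The list had no single direction, with a median of 0.069.

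For promoters, 34 of 41 members had an entry in RefSeq's GRCr8 table, which covers 250 bases before to 50 after a gene's start. Those of Tat, Prodh2, Aldh6a1 and Aspg are shown, the member that rose beside 3 of those that fell most, as the 250 bases before the start. Capitals mark matches on either strand to the motifs CCAAT and GTTAAT, the latter part of the site of the liver factor HNF1, and none of these matches overlapped another.
Tat, GRCr8 chr19:54856354-54856603, plus strand: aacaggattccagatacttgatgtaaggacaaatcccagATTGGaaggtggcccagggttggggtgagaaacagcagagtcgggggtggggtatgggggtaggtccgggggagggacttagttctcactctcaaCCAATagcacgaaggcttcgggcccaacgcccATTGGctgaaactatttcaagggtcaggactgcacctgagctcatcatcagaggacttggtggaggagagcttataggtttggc
Prodh2, GRCr8 chr1:94880837-94881086, plus strand: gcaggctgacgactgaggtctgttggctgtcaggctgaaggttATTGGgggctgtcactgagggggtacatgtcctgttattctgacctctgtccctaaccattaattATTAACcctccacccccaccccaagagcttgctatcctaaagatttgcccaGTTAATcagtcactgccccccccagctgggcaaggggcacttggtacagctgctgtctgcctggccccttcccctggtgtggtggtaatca
Aldh6a1, GRCr8 chr6:109829726-109829975, minus strand: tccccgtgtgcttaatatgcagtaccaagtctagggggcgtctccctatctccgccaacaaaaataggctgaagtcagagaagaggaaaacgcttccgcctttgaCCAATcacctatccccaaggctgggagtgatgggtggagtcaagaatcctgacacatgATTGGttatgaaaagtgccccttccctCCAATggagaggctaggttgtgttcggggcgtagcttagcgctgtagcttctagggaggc
Aspg, GRCr8 chr6:136997773-136998022, plus strand: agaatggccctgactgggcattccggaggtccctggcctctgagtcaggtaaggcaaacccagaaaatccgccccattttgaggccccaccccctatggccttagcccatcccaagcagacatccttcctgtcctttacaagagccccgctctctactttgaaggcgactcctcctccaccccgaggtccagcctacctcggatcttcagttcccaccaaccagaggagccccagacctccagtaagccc
Tat held CCAAT at 211, 116 and 84 bases before the start, and Aldh6a1 at 145, 87 and 60, so the member that rose and one that fell had 3 matches each. Prodh2 held 1 CCAAT and 2 GTTAAT matches, and Aspg had no match to any motif searched.

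Over the whole windows, CCAAT was in 19 of 34 members' promoters and in 37.7% of all 27457 promoters. It was in 6 of the 9 promoters of members that fell. TATAAA was in 3 of 34 (Agxt2, Aldh4a1 and Tdo2) against 14.3% of all. The C/EBP motif TTGCNNAA was in 6 of 34 against 10.5%, and GTTAAT was in Hpd and Prodh2 against 7.37%. CAAAGTCCA, an element bound by HNF4, was in 3 of 34 (Agxt2, Kmo and Pipox) against 0.38%, and of these only Kmo passed the test. The CRE motif TGACGTCA was in 0 of 34 against 1.91%. Each motif was searched on both strands, and a match describes letters only.

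The tissue label was checked with markers of liver cells and of other cells, and their part in the members' values was not tested. Of 6 tested hepatocyte markers, Fgb and Alb fell, Apoa1 rose and 3 did not pass, and their median log2 ratio differed in sign between array 1 (0.24) and array 2 (-0.56). Their summed log2 level was 19.27 and 18.93 in choline-deficient and 19.17 and 19.49 in control liver. Each sum below follows the probes with the most signal in its list. Of 8 macrophage markers, Marco and Lyz2 rose by 0.91 and 0.69 on the log2 scale and none fell, with summed log2 levels of 14.58 and 14.71 against 14.82 and 14.71. Most of that sum was Clec4f, which did not pass (-0.46 and -0.13). Of 4 cholangiocyte markers Spp1 rose, and the sum of 10.99 and 10.80 against 10.20 and 10.09 mostly followed it, while Krt19, Sox9 and Epcam did not pass, with means of -0.024, 0.041 and 0.27. Of 5 stellate cell markers Col1a1 and Col3a1 rose (sum 13.64 and 13.62 against 13.48 and 13.46). Lrat, Pdgfrb and Des did not pass, with means of -0.10, -0.23 and 0.079. Of 4 endothelial markers Kdr fell (14.45 and 14.46 against 14.97 and 14.76), and it made up most of that sum. Stab2, Lyve1 and Cdh5 did not pass, with means of -0.21, 0.042 and -0.045. Of 3 lymphocyte and neutrophil markers S100a8 rose (9.58 and 9.55 against 9.46 and 9.40). Of 3 erythroid markers Hbb-b1 fell (14.29 and 14.52 against 14.81 and 14.87), and it too made up most of its sum. Krt7, Pecam1 and Cd3e were not well above background, nor were 6 of 8 markers of kidney, gut, pancreas, fat and muscle. The other 2 of these had a summed log2 level of 13.08 and 13.11 against 12.86, and 1, Fabp2, rose.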

How the data were processed

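The samples were 2 two-colour arrays of 45018 spots, each with liver RNA of both diets and with dyes swapped. Scans were extracted by the authors with Agilent Feature Extraction, version 9.5.3.1 per the file headers and 9.5 per the submitters' processing notes. The deposited files hold raw intensity per dye, and probe coordinates of build rn4. The deposited log10 ratio of Cy5 over Cy3 is, per the file headers, background-subtracted and dye-normalized, and the deposited p-value comes from an error model within 1 array. Means and local background medians were corrected by normexp (limma 3.58.1, R 4.3.3; offset 50), which draws ratios of dim probes towards 0, then normalized by loess within each array. Ratios were turned to choline-deficient over control. Outlier spots (174 and 151) were dropped, and repeat spots averaged. A probe was kept if well above background on both arrays in at least 1 diet (22364 probes), and the brightest kept probe stood for its gene. Ratios were tested against 0 with lmFit and eBayes, two-sided (1 residual and 63.0 prior degrees of freedom), with adjustment over 18195 genes. Levels are log2 intensities of 1 dye after loess and Aquantile scaling. The arrays' number limits the precision.

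The 41 members, the further lists and the tests were chosen with earlier results of these data known. Every tested member was described, and at most 4 genes of each further list, those with the largest mean ratios among genes that passed. Some glucocorticoid- and fasting-responsive genes that did not pass were named as well. Markers are named where they passed, and some others where a sum, the background call or the reading of a list turned on them. Alternatives were an offset of 16, median centring, the deposited log ratio, no filter on dim probes, the mean over probes, an intensity trend and each array alone. The procedure was tested on simulated data. Promoters were RefSeq's (GRCr8). No set test was run. A few items are not reported here.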

Additional observations from a re-analysis of the deposited data

How the results depend on the processing

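The number of members that fell (11) and rose (1), and of all genes that fell and rose, went to 0 with median centring and with the deposited log ratio (smallest limma adjusted p of a member 0.193), while limma called 12 members with probe means, 11 without the filter on dim probes, 10 with an offset of 16 and 14 with an intensity trend, and no member called under any of the settings changed its sign. The cause of the lost calls was not tested. With median centring the median log2 ratio was -0.02 for all members, 0.042 for aromatic, 0.019 for histidine, -0.20 for tryptophan, -0.055 for asparagine, aspartate and glutamate, 0.0096 for branched-chain, -0.15 for lysine, -0.52 for proline and 0.17 for glycine and glyoxylate members. With the deposited log ratio it was -0.21 for branched-chain, -0.42 for lysine and -0.40 for tryptophan members. With an offset of 16 it was -0.18 for branched-chain members, and with probe means -0.40 for proline members. On 1 array alone it ran from -0.24 to -0.17 for all members, from -0.28 to 0.013 for histidine, from -0.33 to -0.16 for asparagine, aspartate and glutamate, from -0.086 to 0.070 for glycine and glyoxylate, from -0.18 to -0.093 for aromatic, from -0.43 to -0.33 for tryptophan, from -0.18 to -0.17 for branched-chain, from -0.31 to -0.28 for lysine and from -0.72 to -0.61 for proline members. In the further lists, each count of genes that rose or fell also went to 0 with median centring and with the deposited log ratio. The single rising gene of the urea cycle list and the single falling carrier were lost with an offset of 16 (0 in both), and the falling genes went to 2 among carriers and to 2 among glucocorticoid- and fasting-responsive genes with an intensity trend. Their median log2 ratios with median centring were 0.0023 for other breakdown enzymes, 0.11 for tetrahydrobiopterin, 0.080 for urea cycle, 0.019 for carriers, -0.0077 for regulators and 0.18 for glucocorticoid- and fasting-responsive genes. For urea cycle genes the median was -0.073 with an offset of 16 and with probe means and -0.10 with the deposited log ratio, and for carriers it was -0.16 with the deposited log ratio and -0.0070 without the filter. On 1 array alone it ran from -0.0030 to 0.039 for tetrahydrobiopterin, from -0.14 to -0.13 for urea cycle, from -0.11 to -0.073 for carriers and from -0.17 to -0.084 for regulators. No paired analysis was possible beyond the pairing already in each ratio, because each array holds both diets and the arrays form 1 group. With 1 residual degree of freedom the test rests mostly on spread pooled over genes, and whether the arrays hold separate rats is not given.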
